A study of Mus musculus with 9 samples.

Results

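Bone marrow progenitors that carried the GATA2 variant R396Q were compared with progenitors that carried the empty vector, over all 21072 transcript clusters of the array (a cluster is the set of probes summed for 1 gene or locus). The 6 arrays were chosen by their titles from the 9 of the series, 3 per group, and the other 3 arrays are of GATA2 wild type. In every group the cells came from C57BL/6 female mice aged 8 weeks that had been given 5-fluorouracil, a drug that kills dividing blood cells, at 150 mg/kg 6 days before the marrow was taken. Lin-Sca+Kit+ cells, a fraction rich in blood stem cells, were enriched on a magnetic sorter, 100000 cells per condition were infected on consecutive days with a retrovirus, and cells with green fluorescence were sorted after 72 h of culture. By the labels the groups differed in the insert: the vector MIE carried green fluorescent protein and no GATA2, and the other vectors also carried GATA2 R396Q or GATA2 wild type. The labels name no allele of the donor mice beyond the strain, so the cells of all groups are taken to have had their own Gata2 too. The labels do not give the species of the inserted GATA2, and it is not stated whether replicates are separate animals or cultures.

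GATA2 is a zinc finger transcription factor that binds DNA at GATA letters and is needed for blood stem and progenitor cells and for mast cells. It shares sites with GATA1, which takes over in red cell and megakaryocyte precursors, and forced GATA2 is known to hold back monocyte and neutrophil differentiation. R396Q replaces an arginine by glutamine in the second of its zinc fingers, the one that contacts DNA, and inherited GATA2 mutations in people are known for low monocyte, dendritic cell, B cell and natural killer cell numbers and for myeloid leukemia.

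Median log2 signals ran from 6.06 to 6.19 over the 9 arrays and lower quartiles from 4.54 to 4.60; a signal below the quartile is not shown to lie above background. Kit, the stem cell factor receptor used for the sort, had signals of 12.22, 12.23 and 12.38 in empty vector replicates 1, 2 and 3, and Cd34, a progenitor surface protein, 12.94, 13.24 and 13.46. Cd3e, of T cells, was below the quartile on all 3 (4.17, 4.16 and 4.17). Itgam, a marker of myeloid cells that the lineage depletion should remove, had 11.67, 10.64 and 10.17, and Ly6g, of neutrophils, 8.43, 6.82 and 5.58, so the cultured control cells held myeloid transcripts. Ly6a, which encodes Sca, was not analysed here, and the labels name the tissue as blood although the protocol describes marrow. Fewer cells of a type and less RNA per cell cannot be told apart in these bulk samples.

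Gata2 itself was higher on every R396Q array. Its log2 signals were 9.87, 9.67 and 9.65 with empty vector and 10.65, 10.72 and 10.53 with R396Q, so the groups did not overlap. The difference was 0.90 on the log2 scale, or 1.87-fold (SE 0.14; limma, adjusted p = 0.0394, and 0.0211 with the replicate number as a block). Wild type arrays had 11.50, 11.24 and 10.94, and the R396Q mean was lower than theirs by 0.59 (95% confidence interval of R396Q minus wild type -0.92 to -0.26, adjusted p = 0.0633, which misses the threshold of 0.05, and 0.0222 with the block). The call against empty vector was lost on leaving out any 1 of 7 arrays, that is, all but wild type 1 and wild type 3 (adjusted p up to 0.155). The cells' own Gata2 and the insert cannot be told apart in this signal.

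With R396Q, 259 of 21072 clusters passed the limma test against empty vector, 1.23% of those tested. Of these, 139 rose (0.66%) and 120 fell (0.569%), 75 rises and 63 falls were larger than 2-fold, and the median size of a called change was 1.04 on the log2 scale against 0.09 for all clusters. The signals of both groups did not overlap in any called cluster, while 2968 clusters in all (14.1%) did not overlap and 2540 had an unadjusted p under 0.05. The calls comprised 209 clusters of 1 named gene, 19 pseudogenes, 7 olfactory receptors, 5 microRNAs, 9 clusters shared by several symbols and 10 with no symbol. Same-numbered arrays shared part of their deviation across groups, and with the replicate number as a block 632 clusters passed (3%; 349 rose, 1.66%, and 283 fell, 1.34%), with 226 of the 259 among them. The count was 85 without R396Q 2, 98 without R396Q 1, 109 without R396Q 3 and 165 without wild type 3. Without empty vector 2 it was 304, of which 192 were falls, so falls then made up most calls. In the fit to the 6 arrays of both groups alone it was 94, of which 74 were among the 259. Every change below is on the log2 scale, over means of 3 arrays per group, with array values in the order of replicates 1, 2 and 3.

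**Figure D1:**
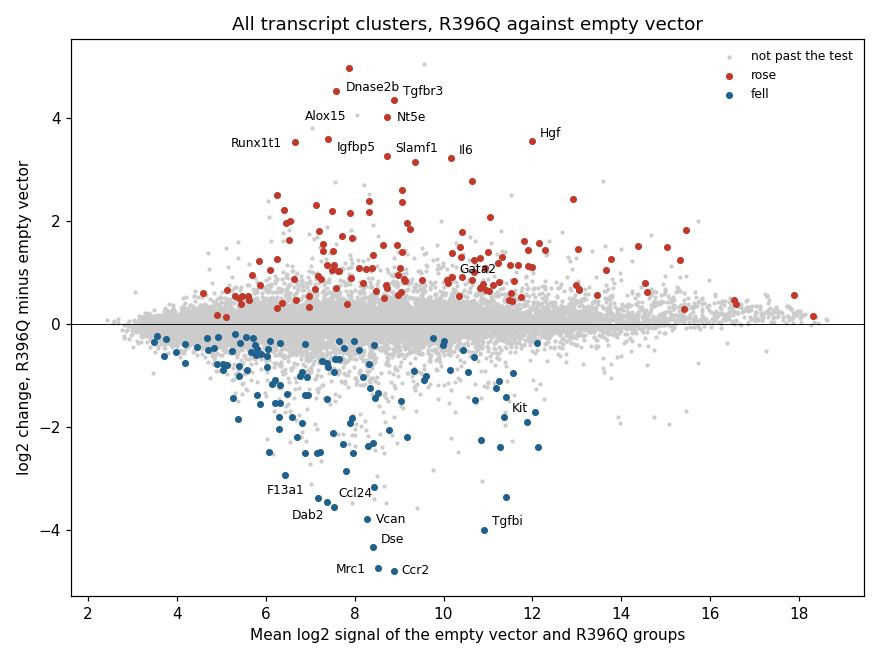
Change of each of the 21072 transcript clusters between R396Q and empty vector (log2, vertical axis) against the mean log2 signal of both groups (horizontal axis). Red points are the 139 clusters that rose and blue points the 120 that fell (limma, adjusted p under 0.05), and the largest falls with a gene symbol, Ccr2 and Mrc1, lie below -4.5.

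Genes of monocytes and macrophages had the lowest median change of the 37 gene lists used here. Of 56 measured genes of this list, 12 fell (21.4%, against 0.569% of all clusters) and none rose, with a median change of -1.16 against -0.01 for all clusters; the median within single replicate numbers ran from -1.27 to -0.72. The fallers were Ccr2, Mrc1, Tgfbi, Vcan, F13a1, Tfec, Clec4a3, Clec4a1, Cd68, Klf4, Sirpa and Trem2. The list's summed signal, on the linear scale, was 159500 to 337800 with empty vector, 100400 to 167300 with R396Q and 53350 to 119700 with wild type. With the block 17 fell (1.34% of all clusters did), adding Csf1r, Ctss, Ms4a6d, Mpeg1 and Mertk. The count without 1 array ran from 5, without R396Q 2 or R396Q 3, to 18, without empty vector 2, and was 6 without R396Q 1 and 8 without empty vector 1 or empty vector 3, while the 6 arrays alone gave 4.

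Ccr2, the receptor that draws monocytes out of marrow, had signals of 12.25, 10.41 and 11.19 with empty vector and 7.01, 6.24 and 6.21 with R396Q. The lowest control array was above the highest R396Q array by far, and the fall was 27.8-fold (change -4.80, SE 0.57; adjusted p = 0.0157). Mrc1, the macrophage mannose receptor, went from 11.14, 10.24 and 11.33 to 6.57, 5.71 and 6.19, a 26.9-fold fall (-4.75, SE 0.45; adjusted p = 0.00707). Vcan, a matrix proteoglycan made by monocytes, stood at 10.19, 9.93 and 10.38 with empty vector and at 6.09, 6.07 and 6.97 with R396Q (13.8-fold lower, SE 0.29; adjusted p = 0.00326). All these groups were separate. F13a1, the coagulation factor subunit of monocytes and platelets, had 9.53, 7.60 and 9.52 with empty vector and 5.74, 5.45 and 5.28 with R396Q (10.5-fold lower, SE 0.50; adjusted p = 0.0315). Its second control array lay closest to the R396Q arrays. The calls of Mrc1 and Vcan were kept whichever array was left out, that of Ccr2 was lost without empty vector 3 or any R396Q array (adjusted p up to 0.0796), and that of F13a1 without any 1 array but empty vector 2 (up to 0.126).

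Wild type arrays were low for the same genes, and the R396Q and wild type means were compared directly, with the R396Q arrays serving in both comparisons. For Mrc1 the wild type signals were 6.70, 5.46 and 6.70, and R396Q minus wild type was -0.13 (95% confidence interval -1.18 to 0.92). For F13a1 it was -0.06 (-1.25 to 1.12) and for Vcan 0.50 (-0.19 to 1.19), so differences within these intervals were not detectable with 3 arrays a group. For Ccr2 wild type had 8.90, 7.60 and 7.43, above the R396Q signals in every replicate number, with a difference of -1.49 that missed the threshold (adjusted p = 0.233) and passed it with the block (0.0211).

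Tgfbi and Tfec kept more signal under R396Q than under wild type. Tgfbi, a secreted matrix protein of macrophages, had 13.28, 12.10 and 13.37 with empty vector, 9.37, 8.35 and 9.04 with R396Q and 7.28, 6.22 and 7.14 with wild type. The R396Q arrays thus lay between both other groups with no overlap. The fall against empty vector was 16.0-fold (SE 0.46; adjusted p = 0.0150, lost without R396Q 2 or R396Q 3, at up to 0.0637), and R396Q minus wild type was 2.04 (adjusted p = 0.0527, and 0.00181 with the block). Tfec, a transcription factor of the MiT family found in macrophages, had 12.87, 13.22 and 13.20, then 10.03, 10.21 and 8.95 with R396Q and 7.72, 7.36 and 7.43 with wild type. Its fall was 10.3-fold (-3.37, SE 0.32; adjusted p = 0.00767), kept without any 1 array, and it was 2.23 higher with R396Q than with wild type (adjusted p = 0.0106). Of the 56 genes of the list, 5 were higher and 1 lower with R396Q than with wild type (2.67% and 3.08% of all clusters were), and the list's median change was -2.13 for wild type against empty vector.

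Smaller falls came from Sirpa, Klf4 and Trem2. Sirpa, which binds CD47 on other cells and restrains phagocytosis, had 12.20, 11.88 and 12.31 with empty vector and 10.73, 10.52 and 10.85 with R396Q (2.70-fold lower; adjusted p = 0.0284). Klf4, a zinc finger factor needed for monocyte differentiation, went from 7.00, 6.61 and 7.31 to 5.60, 5.34 and 5.36 (2.90-fold lower; adjusted p = 0.0189). Trem2, a lipid receptor of macrophages, went from 6.01, 5.87 and 5.86 to 4.88, 4.79 and 5.02 (2.02-fold lower, SE 0.07; adjusted p = 0.00259). None of these groups overlapped. Trem2 was kept without any 1 array, Klf4 was lost without empty vector 1 or any R396Q array (adjusted p up to 0.0897), and Sirpa without empty vector 1, empty vector 3, wild type 2 or any R396Q array (up to 0.116).

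Several monocyte and lysosome genes with large changes passed only when the replicate number was a block. Csf1r, the receptor for the growth factor of macrophages, had 8.93, 7.04 and 9.76 with empty vector and 5.36, 5.13 and 5.93 with R396Q (change -3.11; adjusted p = 0.0886, and 0.0450 with the block). Ctss, a lysosomal protease that processes antigens, had 11.99, 9.72 and 11.91 against 8.48, 6.84 and 7.54 (-3.58; adjusted p = 0.123, and 0.0127 with the block). Empty vector 2 was the lowest control array for both genes, and both groups were separate. Psap, the precursor of lysosomal lipid-degrading cofactors, had 15.66, 15.05 and 16.22 against 13.79, 13.55 and 14.14 (-1.82; adjusted p = 0.0535, and 0.0127 with the block). In the list of 42 lysosome and protease genes 1 fell (2.38%, against 0.569% of all clusters) and none rose without the block, with a median change of -0.29. With the block 7 fell and 2 rose (1.34% and 1.66% of all clusters did).

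Outside the monocyte list, Dse, Dab2 and Ccl24 were among the largest falls. Dse, an epimerase that makes dermatan sulfate, had 10.62, 10.23 and 10.90 with empty vector and 6.60, 5.49 and 6.63 with R396Q. It fell 20.3-fold (-4.34, SE 0.40; adjusted p = 0.00654), and this call was kept without any 1 array. Dab2, an endocytic adaptor of macrophages, had 10.30, 9.27 and 8.39 against 6.16, 5.22 and 5.90 (11.8-fold lower, SE 0.48; adjusted p = 0.0228). Ccl24, a chemokine that attracts eosinophils, had 9.10, 10.02 and 8.17 against 5.64, 5.57 and 5.70 (11-fold lower, SE 0.46; adjusted p = 0.0197). The R396Q arrays of Ccl24 lay within 0.2 of each other, and the control arrays spread over more than 1. The Dab2 call was lost without any 1 array but empty vector 1 or empty vector 3, and the Ccl24 call without empty vector 1, wild type 3 or any R396Q array (adjusted p up to 0.0897 for each).

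Some receptors by which myeloid cells sense microbes fell. Of 38 pattern recognition receptors, 4 fell (Tlr8, Cd180, Clec5a and Trem2, 10.5% against 0.569% of all clusters), none rose and 34 did not pass. The median change was -0.69 against -0.01 for all clusters. With the block 9 fell (1.34% of all clusters did). The count without 1 array ran from 2 to 6 and was lowest without R396Q 1. Tlr8, a sensor of single-stranded RNA, had 8.16, 7.97 and 8.25 with empty vector and 5.32, 5.61 and 5.94 with R396Q (5.68-fold lower, SE 0.20; adjusted p = 0.00404, kept without any 1 array). Cd180, a homolog of the endotoxin receptor, had 9.95, 8.92 and 9.84 against 7.32, 7.08 and 7.39 (4.96-fold lower; adjusted p = 0.0154, lost without any R396Q array at up to 0.0778). Both genes had separate groups.

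Clec5a, a lectin receptor of myeloid cells, fell with R396Q but stayed far above its wild type level. It had 12.76, 12.64 and 13.11 with empty vector, 10.91, 10.83 and 11.05 with R396Q and 6.15, 5.13 and 6.07 with wild type. The fall with R396Q was 3.75-fold (-1.91, SE 0.28; adjusted p = 0.0303), and R396Q minus wild type was 5.14 (adjusted p = 0.000324). Mmp8, the neutrophil collagenase, showed the same order, with 13.63, 12.79 and 13.56, then 11.41, 10.26 and 11.14, then 7.24, 7.07 and 7.60; its fall was 5.26-fold (adjusted p = 0.0315) and R396Q was 3.63 above wild type (adjusted p = 0.00244). Of 30 late neutrophil genes 2 fell (Mmp8 and Clec5a) and Cxcr2 rose (0.569% and 0.66% of all clusters did). In this list 8 genes were higher and 1 lower with R396Q than with wild type (2.67% and 3.08% of all clusters were). The list's count of calls against empty vector without 1 array ran from 0, its value without wild type 3, to 1. The Clec5a call against empty vector was lost without any 1 array but wild type 1 or wild type 2 (adjusted p up to 0.126), and the Mmp8 call without any 1 array but empty vector 2 (up to 0.0977).

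Among 39 Fc, Sirp and other paired receptors 4 fell (10.3%, against 0.569% of all clusters) and none rose, with a median change of -0.07. With the block 8 fell and 1 rose (1.34% and 1.66% of all clusters did). The count was 1 without R396Q 1. The falls of Clec4a3, Clec4a1 and Sirpa were already counted in the monocyte list. Clec4a3, a lectin receptor of myeloid cells, had 7.95, 7.32 and 8.44 with empty vector and 5.25, 4.79 and 4.86 with R396Q, a 7.66-fold fall (SE 0.27, adjusted p = 0.00686). Its relative Clec4a1 had 8.07, 7.04 and 6.86 against 5.12, 4.63 and 4.73 (5.65-fold lower; adjusted p = 0.0185), and Cd300lf, an inhibitory receptor for lipids, 8.71, 8.62 and 8.77 against 7.48, 7.59 and 7.91 (2.06-fold lower; adjusted p = 0.0191). No group overlapped in these genes. Clec4a3 was kept without any 1 array, Clec4a1 was lost without any R396Q array (adjusted p up to 0.0861) and Cd300lf without empty vector 1, empty vector 3, R396Q 1 or R396Q 2 (up to 0.0897).

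Both chains of the interleukin 6 receptor fell while the cytokine rose. Il6ra, the chain that binds interleukin 6, had 10.30, 9.67 and 10.10 with empty vector and 6.79, 6.53 and 7.24 with R396Q. It fell 8.99-fold (-3.17, SE 0.22; adjusted p = 0.00259) and lay below the wild type arrays too, which had 8.20, 7.94 and 7.95 (R396Q minus wild type -1.18, adjusted p = 0.0277). Il6st, the signal-transducing chain gp130, had 12.45, 12.12 and 12.86 against 10.15, 9.86 and 10.25, a 5.24-fold fall (adjusted p = 0.0154). Il6 had 8.42, 8.68 and 8.60 with empty vector and 11.31, 12.16 and 11.88 with R396Q, a 9.29-fold rise (3.22, SE 0.23; adjusted p = 0.00259). Groups were separate for all 3 genes. Wild type arrays had 12.24, 12.17 and 11.79 for Il6, and R396Q minus wild type was -0.28 (95% confidence interval -0.81 to 0.25). The Il6ra and Il6 calls were kept without any 1 array, and the Il6st call was lost without empty vector 1 or any R396Q array (adjusted p up to 0.0771).

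Of 44 cytokine and growth factor receptors, 4 fell (Il6ra, Il6st, Kit and Csf2ra) and Tgfbr3 rose (11.4% called, against 1.23% of all clusters), with a median of -0.16. With the block 7 fell and 3 rose (1.34% and 1.66% of all clusters did). Kit fell from 12.22, 12.23 and 12.38 to 10.58, 10.32 and 10.50, and wild type arrays had 9.50, 9.42 and 9.46. The arrays of each group lay within 0.3 of each other, and the 3 groups were in separate ranges. The fall with R396Q was 3.50-fold (-1.81, SE 0.08; adjusted p = 0.00046), and R396Q was 1.00 above wild type (adjusted p = 0.00113). Csf2ra, the binding chain for the growth factor GM-CSF, had 7.56, 7.60 and 7.23 against 6.55, 6.55 and 6.15 (2.06-fold lower; adjusted p = 0.0245, lost without any 1 array but empty vector 3, at up to 0.0796). Ptprc, the pan-leukocyte phosphatase CD45, had 12.07, 11.99 and 12.02 with empty vector, 11.20, 10.94 and 11.09 with R396Q and 10.41, 10.24 and 10.25 with wild type. It fell 1.93-fold with R396Q (SE 0.08; adjusted p = 0.00394). The Kit and Ptprc calls were kept without any 1 array. Spry2, an inhibitor of receptor tyrosine kinase signalling, fell from 9.62, 9.93 and 9.81 to 8.27, 8.23 and 8.35, and its wild type signals were 9.27, 8.97 and 9.62. It was 2.83-fold below empty vector (adjusted p = 0.0111, lost without R396Q 1 or R396Q 2 at up to 0.0616) and 2.0-fold below wild type (adjusted p = 0.0150). Of 34 immediate early genes (8.82% called, against 1.23% of all clusters) Spry2 and Klf4 fell, and Etv5, an ETS factor induced by growth factor signals, rose by 1.08 (adjusted p = 0.0292), a call lost without any 1 array but wild type 1 or wild type 3 (up to 0.0905).

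Il1f9 and Il1rl2, an interleukin 1 family cytokine and the receptor chain that binds it, fell together. Il1f9 had 9.30, 9.24 and 9.15 with empty vector and 7.13, 5.60 and 6.40 with R396Q, a 7.22-fold fall (SE 0.37; adjusted p = 0.0188). Il1rl2 had 9.07, 9.17 and 9.40 against 6.60, 6.48 and 7.03 (5.69-fold lower, SE 0.28; adjusted p = 0.0142). The control arrays were close together and well above the R396Q arrays for both. The Il1f9 call was lost without any empty vector array or R396Q 3 (adjusted p up to 0.0750) and the Il1rl2 call without R396Q 1 or R396Q 2 (up to 0.0686).

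Of 49 cytokine and growth factor ligands, 4 rose (8.16%, against 0.66% of all clusters) and none fell, with a median change of 0.01: Hgf, Il6, Il12a and Tgfb1. Hgf, hepatocyte growth factor and ligand of the Met receptor, had 10.26, 10.03 and 10.36 with empty vector and 13.96, 14.03 and 13.30 with R396Q. This was an 11.7-fold rise (3.54, SE 0.23; adjusted p = 0.00244), kept without any 1 array. Wild type arrays had 13.86, 13.87 and 13.40, and R396Q minus wild type was 0.05 (95% confidence interval -0.48 to 0.58). Tgfb1, the transforming growth factor of most blood cells, had 14.30, 14.28 and 14.24 against 14.96, 14.82 and 14.87 (1.52-fold higher, SE 0.07; adjusted p = 0.0134). Il12a, a chain of interleukins 12 and 35, had 7.32, 7.12 and 6.87 with empty vector, 8.93, 8.45 and 8.94 with R396Q and 8.04, 7.66 and 7.30 with wild type. It was 3.19-fold above empty vector (adjusted p = 0.0224) and 1.10 above wild type (adjusted p = 0.0375). The Tgfb1 call was lost without R396Q 1 or R396Q 3 (adjusted p up to 0.0543) and the Il12a call against empty vector without any 1 array but wild type 1 or wild type 3 (up to 0.0890).

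Tgfbr3, a coreceptor that presents transforming growth factor beta, had the second largest rise among the called genes with a symbol. Its signals were 6.88, 6.28 and 6.98 with empty vector and 11.30, 10.80 and 11.07 with R396Q, and wild type arrays had 10.50, 9.41 and 10.12. The rise was 20.3-fold (4.35, SE 0.31; adjusted p = 0.00271), kept without any 1 array, and R396Q minus wild type was 1.05 (adjusted p = 0.127, and 0.0133 with the block). Tgfbr3 was the only called gene of 46 of the TGF beta, Wnt and Notch list (2.17%, against 1.23% of all clusters), whose median was 0.05. Smad5, an intracellular mediator of BMP signals, had 9.22, 9.22 and 9.17 against 9.83, 10.14 and 9.91 (adjusted p = 0.0697, and 0.0358 with the block).

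P2rx1, an ATP-gated channel of platelets, and Prkca, a protein kinase C, rose with both GATA2 forms. P2rx1 had 7.84, 7.49 and 8.00 with empty vector and from 10.48 to 11.28 over the 3 R396Q arrays (8.85-fold higher, SE 0.29; adjusted p = 0.00654), and R396Q minus wild type was -0.13 (95% confidence interval -0.82 to 0.55). Prkca had 9.23, 8.90 and 9.65 with empty vector, 11.94, 12.08 and 12.05 with R396Q and 13.30, 12.88 and 13.08 with wild type. It rose 6.80-fold with R396Q (SE 0.19; adjusted p = 0.00259) and stayed 1.06 below wild type (adjusted p = 0.0242). Both calls against empty vector were kept without any 1 array. Igfbp5, which binds insulin-like growth factors, had 5.50, 5.94 and 5.34 with empty vector and 10.26, 8.73 and 8.57 with R396Q (12-fold higher, SE 0.53; adjusted p = 0.0317), and Gch1, the first enzyme of tetrahydrobiopterin synthesis, 8.62, 7.34 and 7.70 against 9.99, 10.44 and 10.36 (5.17-fold higher, SE 0.33; adjusted p = 0.0245). The replicates of Igfbp5 spread by more than 1 with R396Q and those of Gch1 with empty vector. The Igfbp5 call was lost without any 1 array but wild type 2 (adjusted p up to 0.0998) and that of Gch1 without empty vector 3, wild type 2, wild type 3 or any R396Q array (up to 0.109).

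**Figure D2:**
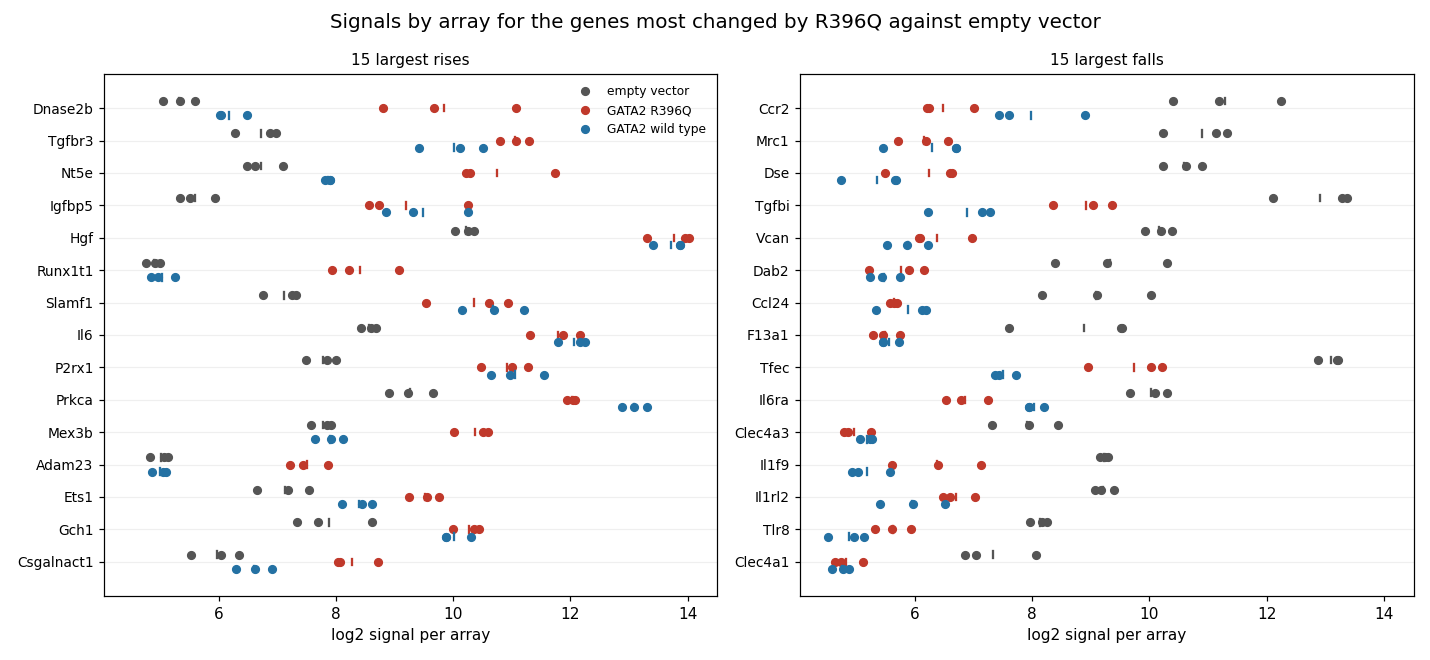
Log2 signal per array (horizontal axis) of the 15 genes with the largest rises and the 15 with the largest falls between R396Q (red) and empty vector (grey), with wild type (blue); vertical ticks are group means. The 30 genes were chosen among those whose red and grey points do not overlap. The blue points lie beside the red ones for Hgf, Il6 and Mrc1 but beside the grey ones for Runx1t1, Mex3b and Adam23.

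GATA letters were looked for in the promoters of the changed genes, since GATA2 binds such letters, and 6 promoters from the largest changes are printed to show where they lie. The letters searched were GATA with A or T before and A or G after them (such as AGATAA, which reads TTATCT on the other strand), on both strands, in the 250 bases before the RefSeq start site of build GRCm38.p6. They were present in 27.1% of 27025 promoters, in 21 of 80 matched promoters of genes that rose (26.2%, of 127 gene symbols) and in 14 of 77 of genes that fell (18.2%, of 98 symbols). The letters GAGGAAG, a purine run that the myeloid factor PU.1 can bind, searched on both strands and not part of the GATA letters, were present in 10.4% of all promoters, 7 of 80 that rose (8.75%) and 21 of 77 that fell (27.3%). Capitals mark the GATA letters, and a match is a run of letters, not a site shown to be bound. Of the 15 largest rises 11 had a promoter in the table and 6 a match, and of the 15 largest falls 13 and 5; the first 3 of each are the following, read 5′ to 3′ toward the start site.
Dnase2b, chr3:146615599-146615848, minus strand: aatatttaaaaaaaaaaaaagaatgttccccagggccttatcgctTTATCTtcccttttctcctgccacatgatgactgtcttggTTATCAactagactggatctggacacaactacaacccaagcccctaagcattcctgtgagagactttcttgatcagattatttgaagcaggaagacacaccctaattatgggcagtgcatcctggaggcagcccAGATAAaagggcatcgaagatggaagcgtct
Hgf, chr5:16553245-16553494, plus strand: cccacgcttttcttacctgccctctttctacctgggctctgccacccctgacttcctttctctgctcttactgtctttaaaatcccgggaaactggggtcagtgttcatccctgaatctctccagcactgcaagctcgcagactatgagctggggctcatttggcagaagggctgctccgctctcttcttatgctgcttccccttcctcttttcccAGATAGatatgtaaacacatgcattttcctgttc
Slamf1, chr1:171766882-171767131, plus strand: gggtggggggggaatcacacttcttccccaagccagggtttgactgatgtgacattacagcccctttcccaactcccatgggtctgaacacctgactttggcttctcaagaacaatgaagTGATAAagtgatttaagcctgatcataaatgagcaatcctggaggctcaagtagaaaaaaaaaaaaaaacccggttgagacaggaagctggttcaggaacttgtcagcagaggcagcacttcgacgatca
Ccr2, chr9:124101933-124102182, plus strand: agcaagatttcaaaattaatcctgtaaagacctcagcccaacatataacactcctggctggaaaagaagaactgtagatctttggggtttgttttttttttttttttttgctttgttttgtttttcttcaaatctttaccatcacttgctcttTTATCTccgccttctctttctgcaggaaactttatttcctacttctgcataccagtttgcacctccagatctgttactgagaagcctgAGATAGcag
Tgfbi, chr13:56609336-56609585, plus strand: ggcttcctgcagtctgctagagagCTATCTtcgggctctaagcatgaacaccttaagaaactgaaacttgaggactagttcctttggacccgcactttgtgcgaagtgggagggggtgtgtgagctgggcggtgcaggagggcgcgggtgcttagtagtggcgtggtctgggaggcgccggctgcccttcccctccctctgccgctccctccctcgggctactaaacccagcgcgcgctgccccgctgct
Tfec, chr6:16898442-16898691, minus strand: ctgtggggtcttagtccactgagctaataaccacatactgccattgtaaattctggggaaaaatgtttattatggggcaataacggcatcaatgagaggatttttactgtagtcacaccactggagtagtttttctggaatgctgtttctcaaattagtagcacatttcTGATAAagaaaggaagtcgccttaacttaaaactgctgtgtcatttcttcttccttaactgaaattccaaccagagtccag
The nearest match began 31 bases before the start in Dnase2b, 34 in Hgf, 130 in Slamf1, 9 in Ccr2, 226 in Tgfbi and 81 in Tfec. Promoters without a match were passed over, so matches before both rises and falls follow from the choice. Dnase2b had 3 matches and Ccr2 had 2.

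Of 39 blood transcription factors, 4 rose (Ikzf2, Runx1, Gata2 and Fli1) and 2 fell (Lyl1 and Klf4), with a median of 0.01 (15.4% called, against 1.23% of all clusters). The count without 1 array ran from 2, its value without empty vector 1, to 5, and the Gata2 signal may include the insert. Ikzf2, the zinc finger factor Helios, had 8.10, 8.29 and 8.59 with empty vector and 9.93, 10.28 and 10.29 with R396Q (3.57-fold higher, SE 0.17; adjusted p = 0.00648). Runx1, a core factor of blood stem cells, had 11.08, 10.90 and 10.78 against 12.14, 12.20 and 11.81 (2.19-fold higher, SE 0.17; adjusted p = 0.0369), and Fli1, an ETS factor of megakaryocytes, 13.07, 13.19 and 13.27 against 13.77, 13.71 and 13.71 (1.47-fold higher, SE 0.05; adjusted p = 0.00800). Groups were separate for each, and the Fli1 arrays differed least within a group. Lyl1, a helix-loop-helix partner of GATA factors, had 10.36, 10.56 and 9.91 against 8.81, 7.91 and 7.52 (4.58-fold lower, SE 0.36; adjusted p = 0.0453, 0.0605 with the block and 0.0507 with array weights). Ikzf2 and Fli1 were kept without any 1 array, although Fli1 missed the threshold after quantile normalization (adjusted p = 0.0709). Runx1 was lost without any 1 array but wild type 3 (adjusted p up to 0.143) and Lyl1 without any 1 but R396Q 1 (up to 0.173). Ets1, an ETS factor of lymphoid and endothelial cells, had 7.54, 7.18 and 6.66 with empty vector, 9.55, 9.25 and 9.75 with R396Q and 8.62, 8.10 and 8.45 with wild type. Its rise was 5.25-fold (SE 0.25; adjusted p = 0.0105, lost without R396Q 1 at 0.0508), and R396Q minus wild type was 1.13 (adjusted p = 0.0506).

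Stem cell surface genes moved in both directions. Slamf1, the CD150 antigen used to sort stem cells, had 7.31, 6.76 and 7.25 with empty vector and 10.93, 10.61 and 9.54 with R396Q, a 9.54-fold rise (3.25, SE 0.41; adjusted p = 0.0188). Cd48, an antigen that stem cells lack and progenitors carry, rose too, from 14.23, 13.92 and 14.67 to 15.58, 15.65 and 16.08 (2.83-fold, SE 0.20; adjusted p = 0.0233), and wild type arrays had 13.08, 13.15 and 13.12. Cd34 was 12.80, 12.77 and 12.83 with R396Q, and its difference from empty vector, -0.41, did not pass the test (adjusted p = 0.270), while R396Q was 4.22 above wild type, whose arrays had 8.41, 8.69 and 8.65 (adjusted p = 5.91e-05). Of 31 stem cell genes 2 rose (Slamf1 and Cd48), Kit fell and 28 did not pass (9.68% called, against 1.23% of all clusters), with a median of -0.06. The Slamf1 call was lost without empty vector 1, empty vector 3, R396Q 1 or R396Q 2 (adjusted p up to 0.0868), and that of Cd48 without any 1 array but empty vector 2 or empty vector 3 (up to 0.0868). None of 18 Hox, Meis and Pbx genes passed limma's test (0 also with the block, and 1 at an unadjusted p under 0.05, against 2540 of all 21072 clusters). Their changes ran from -0.44 to 0.32.

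Genes of mast cells and basophils had a positive median change. Of 36 mast cell genes Ltc4s rose and Kit fell (5.56% called, against 1.23% of all clusters), with a median change of 0.32 (0.00 to 0.55 within replicate numbers). With the block 5 rose and 1 fell (1.66% and 1.34% of all clusters did). Ltc4s, which makes leukotriene C4, had 4.29, 4.35 and 4.25 with empty vector, below the lower quartile of the arrays, and 4.96, 4.85 and 4.89 with R396Q (1.52-fold higher; adjusted p = 0.0157, lost without empty vector 1, empty vector 3 or any R396Q array, at up to 0.0657), so its fold is uncertain. Cpa3, the carboxypeptidase of mast cell granules, had 14.89, 13.99 and 15.30 against 16.38, 16.66 and 17.14 (change 2.00; adjusted p = 0.0802, and 0.0244 with the block). Cyp11a1, a steroid-making enzyme found in mast cells, had 12.18, 11.15 and 13.29 against 14.30, 14.88 and 15.78 (2.78; adjusted p = 0.0896, and 0.0377 with the block). In both genes the lowest R396Q array was above the highest control array.

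Alox15, a lipoxygenase of eosinophils and other myeloid cells, had one of the largest changes that missed the threshold. Its signals were 6.53, 5.63 and 5.94 with empty vector, 11.10, 9.95 and 9.20 with R396Q, and the wild type mean was 11.19. R396Q was 16.5-fold above empty vector (4.05, SE 0.70; adjusted p = 0.0511, and 0.0148 with the block), and all R396Q arrays were above all control arrays. Of 28 basophil and eosinophil genes Il6 alone rose (3.57%, against 0.66% of all clusters) and none fell, with a median of 0.22. In this list 8 genes were lower and 1 higher with R396Q than with wild type (3.08% and 2.67% of all clusters were). Mcpt8, a protease that marks basophils, had 16.00, 15.05 and 15.61 against 16.40, 16.44 and 16.35 (0.84; adjusted p = 0.167). Ptger3, a prostaglandin E receptor of mast cells, rose from 9.30, 9.49 and 9.81 to 11.10, 11.25 and 11.62 (3.46-fold, SE 0.20; adjusted p = 0.0134, lost without R396Q 2 at 0.0616), and R396Q minus wild type was -0.20 (95% confidence interval -0.68 to 0.27). In 32 eicosanoid genes 2 rose, Ptger3 and Ltc4s (6.25%, against 0.66% of all clusters), and none fell.

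Cxcr2, the receptor for neutrophil-attracting chemokines, was the only riser among the 30 late neutrophil genes. It had 10.65, 10.12 and 9.26 with empty vector and 12.03, 12.40 and 11.83 with R396Q, a 4.21-fold rise (SE 0.33; adjusted p = 0.0432), and wild type arrays had 11.92, 11.90 and 11.92. The call was lost without any 1 array but empty vector 1 or empty vector 3 (adjusted p up to 0.163). Of 43 chemokine ligands and receptors it was the only rise, against 2 falls, Ccr2 and Ccl24 (6.98% called, against 1.23% of all clusters). Cst7, an inhibitor of lysosomal cathepsins, was the only called gene of 18 in the neutrophil primary granule list (5.56%, against 1.23% of all clusters). It rose and is described below with genes that wild type lowered. With the block 2 genes of this list rose and 2 fell (1.66% and 1.34% of all clusters did). Wild type lowered 11 of the 18 and raised 1 (4.35% and 4.64% of all clusters). Against wild type 6 were higher and 1 lower with R396Q (2.67% and 3.08% of all clusters were).

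**Figure D3:**
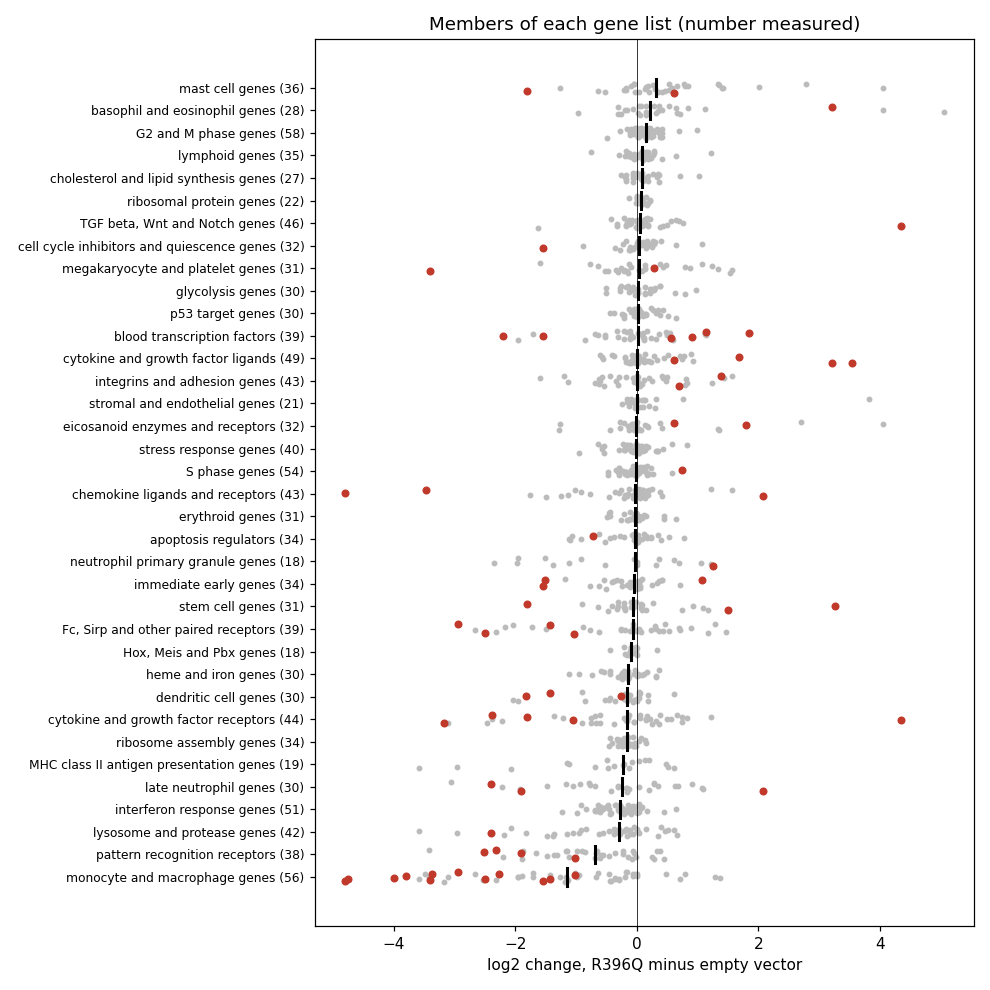
Log2 change between R396Q and empty vector (horizontal axis) of each measured member of the gene lists, with the number measured in brackets; red points passed the test, grey points did not, and black bars are medians. The monocyte and macrophage list has the lowest median, -1.16, with 12 of 56 genes called, all falls.

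Genes of red cells, which wild type raised, did not move with R396Q past the test. Of 31 erythroid genes none passed limma's test with R396Q (0 also with the block, and 0 at an unadjusted p under 0.05, against 2540 of all 21072 clusters). The median was -0.02 and the changes ran from -0.50 to 0.64. By contrast 22 rose with wild type (4.64% of all clusters rose with wild type, 4.35% fell and 8.99% did either), with a median of 1.96. With R396Q 23 were lower than with wild type (3.08% of all clusters were). Car2, carbonic anhydrase 2, had 9.08, 8.75 and 9.56 with empty vector, 9.80, 9.61 and 9.33 with R396Q and 13.44, 13.10 and 13.40 with wild type. R396Q minus empty vector was 0.45 (95% confidence interval -0.08 to 0.98, adjusted p = 0.492) and R396Q minus wild type -3.73 (adjusted p = 0.000435). Icam4, the Landsteiner-Wiener blood group protein, had 6.98, 6.85 and 6.97, then 7.56, 7.50 and 7.07 with R396Q, then 11.10, 10.98 and 10.44 with wild type (R396Q minus wild type -3.46, adjusted p = 0.000409). The R396Q arrays of both genes lay with the control arrays or just above them. Cpox, an enzyme of heme synthesis, had 9.78, 9.88 and 9.78 with empty vector, 9.32, 9.17 and 9.21 with R396Q and 12.79, 12.55 and 12.94 with wild type; the R396Q arrays were below the control arrays, by 0.58 (adjusted p = 0.0503), and 3.53 below wild type (adjusted p = 4.15e-05). Of 30 heme and iron genes none passed against empty vector. At an unadjusted p under 0.05 there were 8 (2540 of all 21072 clusters), and 1 fell with the block (1.34% of all clusters did). With R396Q 8 were lower and 1 higher than with wild type (3.08% and 2.67% of all clusters were).

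Of 31 megakaryocyte and platelet genes, Rap1b rose and F13a1 fell (6.45% called, against 1.23% of all clusters) and 29 did not pass, with a median change of 0.04 against 1.78 for wild type. In this list 15 were lower and none higher with R396Q than with wild type (3.08% and 2.67% of all clusters were). With the block 5 rose and 1 fell (1.66% and 1.34% of all clusters did). The count without 1 array ran from 0, its value without empty vector 1, to 3. Rap1b, a small GTPase that activates platelet integrins, had 15.23, 15.20 and 15.37 with empty vector, 15.55, 15.55 and 15.56 with R396Q and 15.89, 15.86 and 15.92 with wild type. The step of 0.28 (1.22-fold; adjusted p = 0.0455) was lost without any 1 array but empty vector 3 (adjusted p up to 0.163) and after median subtraction (0.0678) or quantile normalization (0.817). Among 43 integrin and adhesion genes Pecam1 and Itga6 rose (4.65%, against 0.66% of all clusters) and none fell. Pecam1, an adhesion protein of platelets, leukocytes and endothelium, had 10.45, 10.05 and 10.44 with empty vector, 11.85, 11.71 and 11.55 with R396Q and 10.30, 10.47 and 9.88 with wild type. It was 2.62-fold above empty vector (adjusted p = 0.0188, lost without empty vector 1, empty vector 3 or any R396Q array, at up to 0.0876) and 1.48 above wild type (adjusted p = 0.00541). Itga6, the laminin receptor chain, had 10.32, 10.38 and 10.72 against 11.08, 11.35 and 11.08 (1.62-fold higher; adjusted p = 0.0497, and 0.0667 with the block, lost without any 1 array but empty vector 3, at up to 0.154, and after quantile normalization at 0.0697).

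A group of genes was raised by R396Q above both other groups. Of the 139 rises, 57 were higher than wild type too, 9 were lower than wild type and 73 did not differ from it past the test, and of the 120 falls, 9 were also lower than wild type, 25 were higher and 86 did not differ past the test; in all clusters 5.75% differed between R396Q and wild type. These counts share the R396Q arrays. Runx1t1, the corepressor known as ETO, had 4.75, 4.91 and 5.00 with empty vector, 5.25, 4.97 and 4.85 with wild type and 7.93, 8.22 and 9.08 with R396Q. It was 11.5-fold above empty vector (3.52, SE 0.28; adjusted p = 0.00394) and 3.39 above wild type (adjusted p = 0.00151). Adam23, a cell-surface adhesion protein, had 5.07, 4.82 and 5.14, then 4.86, 5.05 and 5.10 with wild type, then 7.21, 7.43 and 7.86 with R396Q (5.63-fold above empty vector, SE 0.17; adjusted p = 0.00259). Mex3b, an RNA-binding ubiquitin ligase, had 7.57, 7.84 and 7.92 with empty vector, 7.64, 8.12 and 7.92 with wild type and 10.01, 10.50 and 10.59 with R396Q (6.02-fold, SE 0.19; adjusted p = 0.00283). In these genes the control and wild type arrays overlapped, and the R396Q arrays stood alone. R396Q minus wild type was 2.50 for Adam23 (adjusted p = 0.000782) and 2.47 for Mex3b (adjusted p = 0.00113). All 3 calls against empty vector were kept without any 1 array.

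Dnase2b, an acid nuclease, had the largest rise among the called genes with a symbol and varied between replicates. It had 5.34, 5.04 and 5.59 with empty vector, 8.80, 9.67 and 11.07 with R396Q and 6.04, 6.02 and 6.48 with wild type, so the R396Q arrays alone spread over more than 2. The rise was 23.1-fold (4.53, SE 0.53; adjusted p = 0.0153, lost without R396Q 2 at 0.0697), and R396Q was 3.67 above wild type (adjusted p = 0.0104). Nt5e, the CD73 enzyme that makes adenosine, had 6.61, 6.48 and 7.09, then 10.21, 10.29 and 11.74 with R396Q and 7.90, 7.90 and 7.81 with wild type. It rose 16.2-fold (SE 0.40; adjusted p = 0.00809), kept without any 1 array, and was 2.87 above wild type (adjusted p = 0.00932). In both genes R396Q 3 was the highest array.

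Epha7, an ephrin receptor, had 5.43, 5.62 and 5.62 with empty vector, 7.84, 7.64 and 7.19 with R396Q and 4.61, 5.02 and 5.12 with wild type (4.0-fold above empty vector, adjusted p = 0.00800; 2.64 above wild type, adjusted p = 0.00104). Six4, a homeobox factor, had 5.54, 5.73 and 5.87, then 7.63, 7.06 and 7.31 with R396Q and 5.18, 5.44 and 5.66 with wild type (3.08-fold above empty vector, adjusted p = 0.0131; 1.91 above wild type, adjusted p = 0.00223). Both had lower means with wild type than with empty vector, by differences that did not pass the test (adjusted p = 0.103 for Epha7 and 0.423 for Six4). Tespa1, a signalling protein of thymocytes and mast cells, had 11.28, 11.04 and 10.68 against 12.88, 12.56 and 12.39 with R396Q (3.05-fold, adjusted p = 0.0176) and 10.81, 10.38 and 10.48 with wild type. Mxra8, a surface protein, had 6.83, 6.43 and 5.90 against 8.42, 8.52 and 8.80 with R396Q (4.58-fold, adjusted p = 0.0185), and Csgalnact1, which starts chondroitin sulfate chains, 5.53, 6.35 and 6.04 against 8.04, 8.72 and 8.06 (4.92-fold, adjusted p = 0.0175). R396Q was above wild type by 2.05 for Tespa1 (adjusted p = 0.00243), 1.91 for Mxra8 (adjusted p = 0.0106) and 1.67 for Csgalnact1 (adjusted p = 0.0185). Epha7 kept its call without any 1 array. The others lost it without R396Q 3 (Six4, adjusted p = 0.0543), R396Q 1 or R396Q 2 (Tespa1, up to 0.0796), any R396Q array (Mxra8, up to 0.0827), or empty vector 3 or any R396Q array (Csgalnact1, up to 0.0616).

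**Figure D4:**
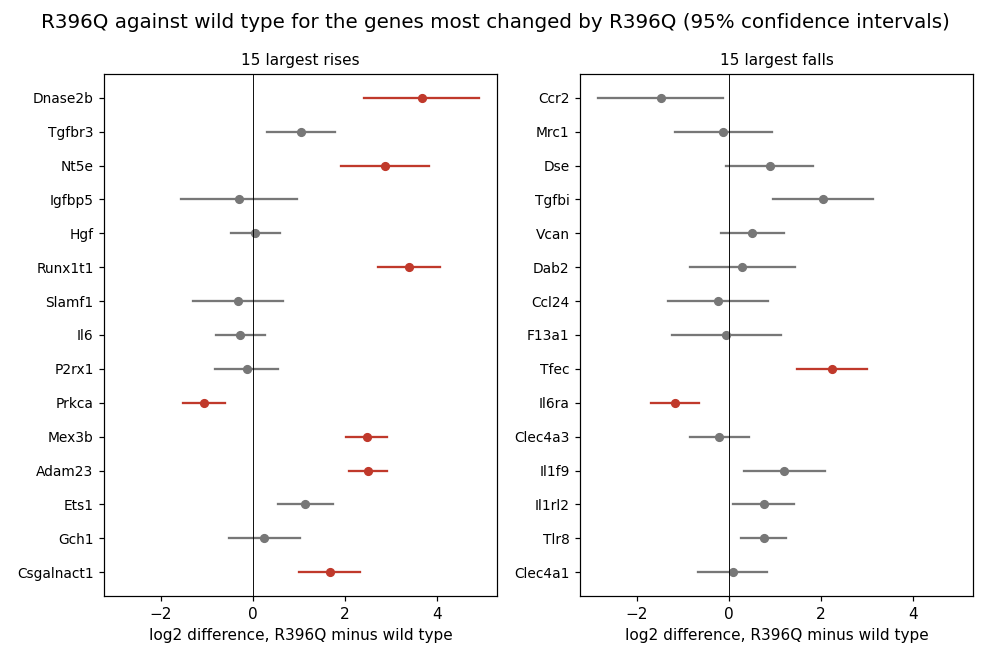
Log2 difference of R396Q minus wild type (horizontal axis) for the 15 largest rises and 15 largest falls of R396Q against empty vector, as points with 95% confidence intervals; red passed the test of R396Q against wild type and grey did not. Dnase2b and Runx1t1 lie above 3, while the intervals of Hgf, Il6, Mrc1 and F13a1 include 0.

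In 14 clusters R396Q and wild type moved away from empty vector in opposite directions, and in all 14 R396Q rose and wild type fell. Both comparisons use the same empty vector arrays. Afap1l1, an actin-binding adaptor, had 8.14, 8.47 and 8.47 with empty vector, 9.71, 9.62 and 9.94 with R396Q and 6.82, 6.73 and 6.60 with wild type. It was 2.63-fold above empty vector (adjusted p = 0.00544) and 3.04 above wild type (adjusted p = 0.000111). Cst7 had 14.73, 14.68 and 14.71, then 15.79, 15.98 and 16.07 with R396Q and 13.99, 14.17 and 13.92 with wild type (2.37-fold above empty vector, SE 0.09, adjusted p = 0.00259; 1.93 above wild type, adjusted p = 0.000155). Reps1, an endocytic adaptor, had 11.51, 11.37 and 11.43 against 12.50, 12.51 and 12.59 with R396Q and 11.26, 11.15 and 11.01 with wild type (2.14-fold above empty vector, adjusted p = 0.00244). The 3 groups were in separate ranges for each gene, and these calls were kept without any 1 array. Cd48, given above, showed the same order.

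Others of this kind were smaller or less stable. Snx24, a sorting nexin, had 7.01, 6.60 and 6.85 with empty vector, 7.47, 7.82 and 7.76 with R396Q and 5.16, 5.12 and 5.21 with wild type (1.82-fold above empty vector; adjusted p = 0.0303, and 0.0517 with the block). Sort1, the sorting receptor sortilin, had 10.68, 11.04 and 10.79 against 11.81, 11.73 and 11.41 and 9.29, 9.45 and 9.44 with wild type (1.76-fold; adjusted p = 0.0414, and 0.114 after quantile normalization), and Pik3r6, an adaptor of phosphoinositide 3-kinase gamma, 7.50, 7.35 and 7.59 against 8.55, 8.44 and 8.12 and 6.58, 6.44 and 6.22 with wild type (1.85-fold; adjusted p = 0.0392). These calls were lost without 6, 7 and 8 of the 9 arrays, in that order: all but empty vector 1, empty vector 2 and R396Q 1 for Snx24 (adjusted p up to 0.116), all but empty vector 2 and R396Q 3 for Sort1 (up to 0.163) and all but R396Q 3 for Pik3r6 (up to 0.155). Zfp217, Ablim1 and Top3b had the same value on all 3 empty vector arrays (7.64, 6.70 and 11.49), a tie that the summary of probes can give. Their group spread there was 0, and the R396Q signals were 8.00, 8.03 and 8.05 for Zfp217, 7.19, 7.35 and 7.18 for Ablim1 and 12.14, 12.05 and 11.83 for Top3b. In 15 of the 259 called clusters (5.79%, against 12.4% of all) at least 1 of both groups had a single value. The Zfp217 and Ablim1 calls (adjusted p = 0.00453 and 0.0124) were kept without any 1 array, and that of Top3b (adjusted p = 0.0317) was lost without any 1 but R396Q 3 (up to 0.133) and after quantile normalization (0.107).

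Of 54 S phase genes Tyms, thymidylate synthase, alone rose and none fell (1.85% called, against 1.23% of all clusters). Tyms went from 12.79, 12.59 and 12.44 to 13.38, 13.42 and 13.28 (1.68-fold, adjusted p = 0.0170, lost without any R396Q array, at up to 0.0819). Its pseudogene, Tyms-ps, also rose, by 1.13 (adjusted p = 0.0188), and probes of a gene and its near copy can read the same RNA, so the rise of Tyms is uncertain. None of 58 G2 and M phase genes passed limma's test. At an unadjusted p under 0.05 there were 9, against 2540 of all 21072 clusters, and with the block 1 rose and 1 fell (1.66% and 1.34% of all clusters did). Of the 58, 48 had a positive change and the median was 0.15. Top2a, the mitotic topoisomerase, also had a positive change, with 13.51, 13.39 and 13.40 against 13.71, 13.72 and 13.76 (adjusted p = 0.0537). Of 34 apoptosis regulators Bcl2l11, the killer protein Bim, alone fell and none rose (2.94% called, against 1.23% of all clusters). Bcl2l11 went from 7.45, 7.72 and 7.71 to 6.82, 6.87 and 7.03 (1.65-fold, adjusted p = 0.0188, lost without empty vector 3, R396Q 1 or R396Q 2 at up to 0.0872, and 0.0563 after quantile normalization). None passed among 30 p53 target, 40 stress response, 30 glycolysis, 27 cholesterol and lipid synthesis, 34 ribosome assembly, 22 ribosomal protein or 21 stromal and endothelial genes, with medians from -0.16 to 0.08. At an unadjusted p under 0.05 these lists had 4, 3, 7, 0, 3, 3 and 3 genes in that order, against 2540 of all 21072 clusters. With the block 1 glycolysis gene fell and 1 cholesterol gene rose (1.34% and 1.66% of all clusters did). None of 51 interferon response genes passed either (0 also with the block and at an unadjusted p under 0.05), with a median of -0.28; Ifit2, an interferon-induced RNA-binding protein, had 9.90, 8.18 and 7.65 with empty vector and 8.46, 7.39 and 7.11 with R396Q, with replicate 1 the highest array of both groups, and the change was -0.92 (adjusted p = 0.647).

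Of 30 dendritic cell genes 3 fell (Sirpa, Cd86 and Batf3; 10%, against 0.569% of all clusters), none rose and 27 did not pass, with a median change of -0.16. The count without 1 array ran from 0, its value without R396Q 1, to 3, and each of these 3 calls was lost without any R396Q array. Cd86, a costimulatory ligand of antigen-presenting cells, had 7.19, 7.60 and 7.72 against 6.22, 5.25 and 5.57 (3.53-fold lower; adjusted p = 0.0474, 0.0533 with the block and 0.0586 with array weights), and its call was lost without any 1 of the 9 arrays (adjusted p up to 0.152). Batf3, a factor of conventional dendritic cells, had 5.69, 5.68 and 5.71 against 5.39, 5.45 and 5.45 (1.20-fold lower; adjusted p = 0.0157, lost without any R396Q array at up to 0.0636, and 0.171 after median subtraction and 0.0681 after quantile normalization). None of 19 MHC class II presentation genes passed, with a median of -0.23 (5 at an unadjusted p under 0.05, and 2 fell with the block), and none of 35 lymphoid genes, with a median of 0.09 (3 at an unadjusted p under 0.05, and 1 rose with the block). Over all 21072 clusters 2540 had an unadjusted p under 0.05, and with the block 1.34% fell and 1.66% rose. Nkg7, a granule protein of natural killer and myeloid cells, had 13.98, 13.53 and 13.38 against 15.10, 14.77 and 14.67 (1.21; adjusted p = 0.0872, and 0.00872 with the block).

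Of the 19 called pseudogenes, all of which rose, 17 were copies of ribosomal protein genes. Of 192 clusters of such pseudogenes 17 rose (8.85%, against 0.66% of all clusters) and none fell, by 0.38 to 1.56, and the median over the 192 was 0.37 (0.22, 0.59 and 0.29 within replicate numbers 1, 2 and 3). With the block 15 rose (1.66% of all clusters did), 10 of them among the 17. With wild type 30 of the 192 rose (4.64% of all clusters did) and none fell, with a median of 0.24. None of the 17 differed between R396Q and wild type past the test. Of the 22 ribosomal protein genes with a cluster of their own none passed. Rps4x, a protein of the small ribosomal subunit, had 16.19, 16.22 and 16.09 against 16.29, 16.46 and 16.38 (0.21; adjusted p = 0.211), and the 22 genes had a median of 0.07. Probes of a pseudogene and its parent can read the same RNA, so these rises are uncertain.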

How the data were processed

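The authors deposited log2 signals, 1 for each transcript cluster on each array. Per the submitters' processing notes they used RMA (robust multiarray average) and Affymetrix Expression Console, with no version stated there. RMA sums probes by median polish, which leaves tied values: 4412 of 21072 clusters held fewer than 6 distinct values over the 9 arrays, and none of these was called. Values were used as deposited, and 0 sample columns were left out. The labels name an exon array, while the cluster identifiers are of a later array type.

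All 9 arrays were fitted with limma 3.58.1 in R 4.3.3 (a mean for each group; moderated variances with 6 residual and 0.956 prior degrees of freedom; 2-sided), with Benjamini-Hochberg adjustment over all 21072 clusters and a threshold of 0.05; no dim cluster was left out. The procedure was tested on simulated data with independent noise on each array. That test did not include the deviation shared by same-numbered arrays, which is described below. The main fit had no block. Replicate numbers served as a block, pairing the arrays, only in alternative fits. They were used so because deviations from the group means correlated across groups in all 9 same-numbered pairs (r of 0.451 to 0.693, against -0.537 to -0.0900 for different numbers). Deviations within a group cancel, so the negative values for different numbers are partly forced. The labels do not say what same-numbered arrays share. If replicates are not separate cultures, p-values reflect only the spread among these samples, which may be technical, and 3 arrays per group limit the precision.

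Symbols came from the array annotation, 418 brought up to date through a RefSeq gene table; 18992 clusters had 1 symbol. The 37 gene lists (1115 distinct measured genes) were written from general knowledge, and the comparison and lists were chosen with earlier results of these data known. Of these genes 152 stood in several lists, so calls such as those of Trem2, Sirpa and Kit were counted in each. Genes with several clusters were read from the brightest. Named genes were Gata2, the 15 largest called rises and falls without overlap, up to 6 called members of each list with the smallest p (or up to 2 uncalled where fewer than 2 passed), and up to 10 beyond both groups and 10 moved opposite to wild type, leaving out predicted and unstudied symbols; Csf1r, Cpa3, Cyp11a1, Cd34 and marker genes were added after their values were seen. The alternatives were the block, fits to the compared groups only, trend and robust options, array weights, median subtraction, quantile normalization, leaving out the dimmest 30% or 50%, 1 cluster per symbol, at least 6 distinct values (with and without the block), and leaving out each array.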

Additional observations from a re-analysis of the deposited data

How the results depend on the processing

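With the replicate block, for which same-numbered arrays are taken as pairs, 632 clusters passed against empty vector (349 higher, 283 lower) and 2750 against wild type (1497 higher, 1253 lower). With the block and at least 6 distinct values these were 1114 (596, 518) and 3252 (1748, 1504). Fits to the compared groups alone gave 94 (51, 43) against empty vector and 772 against wild type, of which 388 were lower. Leaving out 1 array gave 85 to 304 against empty vector (higher 53 to 112, lower 32 to 192) and 650 to 1153 against wild type (higher 295 to 566, lower 348 to 616). Rises made up 53.7% of the calls as deposited, 36.8% without empty vector 2 and 63.3% without R396Q 3, and no scaling moved the median of all clusters by 0.1. The other settings gave 258 to 349 calls against empty vector. Of 74 named calls, 27 were kept without any 1 array, 70 with the block and 30 under all settings other than leaving out an array, and none turned its direction. With 3 arrays a group, and signals near the lower quartile not shown above background, small or dim changes may be missed.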

Other observations

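A pair of genes was high on R396Q 1 and R396Q 2 and low on R396Q 3, and 1 of them had the same pattern with wild type. Both missed the test and were chosen after their values were seen. Postn, the matrix protein periostin, had log2 signals of 11.81, 9.55 and 5.47 with R396Q against 5.47, 4.88 and 5.05 with empty vector and 5.55, 4.88 and 4.97 with wild type, so R396Q 1 and R396Q 2 stood apart from the other arrays and R396Q 3 did not (change 3.81, adjusted p = 0.349). Epx, the peroxidase of eosinophil granules, had 14.96, 14.80 and 6.49 with R396Q and 14.81, 14.02 and 7.24 with wild type against 8.99, 6.26 and 5.86 with empty vector. Replicate 3 was thus low with both GATA2 forms, and the change with R396Q was 5.04 (adjusted p = 0.558, and 0.173 with the block).

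The largest rise among the called clusters was in one with no gene symbol, TC1100002602.mm.1, which lies outside the naming rule. It had 5.48, 5.24 and 5.44 with empty vector, 8.41, 8.00 and 7.94 with wild type and 10.49, 10.40 and 10.17 with R396Q, so the 3 groups lay in separate ranges. R396Q was 4.96 above empty vector (SE 0.15; adjusted p = 0.000108) and 2.23 above wild type (adjusted p = 0.000602).

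The following 3 genes, with large paired differences, passed only with the block and were chosen after their values were seen. Chst15, a sulfotransferase of chondroitin chains, had 7.73, 6.92 and 6.54 with empty vector and 10.40, 9.13 and 9.22 with R396Q (adjusted p = 0.0809, and 0.00306 with the block). F2r, the thrombin receptor, had 8.59, 9.21 and 9.48 against 10.10, 10.70 and 11.07 (1.53; adjusted p = 0.140, and 0.00185 with the block), and its differences within replicate numbers were nearly equal. Csf3r, the receptor for the neutrophil growth factor G-CSF, had 11.46, 11.39 and 10.96 against 9.77, 9.22 and 8.16 (-2.22; adjusted p = 0.0545, and 0.0390 with the block), and R396Q was 3.08 above wild type (adjusted p = 0.00661).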
